A study of Mus musculus with 9 samples.

Results

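Caspases are proteases that carry out or prepare cell death, and 8 genes of that machinery are described here: the inflammatory caspase genes Casp1, Casp4 and Casp12, the death receptor caspase gene Casp8, the sensor genes Naip2, Naip5 and Naip6, and Gsdmd, which encodes the pore-forming protein gasdermin D. They were picked by symbol from the 49671 genes of the deposited count table, and all 8 passed the filter on low counts that left 15766 genes to test. The levels in the groups were among the values that led to their choice, so their differences between groups are given as a description, with an error and with no p-value. Statements below that a member passed or did not pass the threshold used over all genes belong to that description. Neither they nor the number of settings in which a member passed are a test of these differences. Bulk poly(A) RNA was sequenced from Panc02, a cell line of mouse pancreatic ductal adenocarcinoma grown in serum-containing medium with no treatment. KO_1E7 is a single clone labelled as a CRISPR knockout of VPAC2, a receptor of vasoactive intestinal peptide and the product of Vipr2. CRISPR_1G2 is a single clone labelled wild type after CRISPR, although the text on the study's design counts both clones as knockouts. The parental group is the unedited line, labelled wild type. Each group has 3 libraries of 1 clone or line, so losing VPAC2 and any other difference of the KO_1E7 clone cannot be told apart.

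In the NLRC4 inflammasome of the mouse, a NAIP protein binds a bacterial protein in the cytosol and recruits NLRC4, which activates caspase-1. Caspase-1 then matures interleukin-1β and interleukin-18 and cuts gasdermin D, whose freed part opens pores in the plasma membrane. Caspase-11, the product of mouse Casp4, is activated by cytosolic lipopolysaccharide and cuts the same gasdermin. These genes are best known from macrophages and from gut epithelium, where they guard against intracellular bacteria. Caspase-8 starts apoptosis below death receptors and holds back necroptosis by RIPK3 and MLKL.

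The 3 inflammatory caspase genes form a tandem block on chromosome 9 and the 3 NAIP genes lie in another on chromosome 13, so the start sites of these 6 are shown to let the neighbours be compared. The sequences are RefSeq promoters of the build GRCm38.p6, from 250 bases before to 50 bases after the first annotated start of each gene, on its own strand, and 7 of the 8 members, all but Gsdmd, matched the table. RefSeq starts need not equal the edge of the gene in the annotation used for counting, and of the 6 shown only that of Casp1 does. In the chromosome 9 block, capitals mark matches to an NF-kB site in Casp4 and to the gamma-activated site TTCNNNGAA in Casp12. They lie at chr9:5298267-5298566 for Casp1, chr9:5308599-5308898 for Casp4 and chr9:5345226-5345525 for Casp12, all on the plus strand.
Casp1: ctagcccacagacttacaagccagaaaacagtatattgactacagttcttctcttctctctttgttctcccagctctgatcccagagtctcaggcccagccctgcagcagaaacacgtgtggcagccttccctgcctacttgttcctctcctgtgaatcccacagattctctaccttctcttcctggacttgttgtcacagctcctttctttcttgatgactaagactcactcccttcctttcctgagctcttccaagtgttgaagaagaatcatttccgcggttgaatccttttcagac
Casp4: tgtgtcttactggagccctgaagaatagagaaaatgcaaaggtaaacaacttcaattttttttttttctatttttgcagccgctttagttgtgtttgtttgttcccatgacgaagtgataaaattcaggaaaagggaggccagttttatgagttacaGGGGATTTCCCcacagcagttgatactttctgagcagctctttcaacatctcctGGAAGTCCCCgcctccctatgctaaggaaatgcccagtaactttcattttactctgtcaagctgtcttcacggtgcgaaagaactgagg
Casp12: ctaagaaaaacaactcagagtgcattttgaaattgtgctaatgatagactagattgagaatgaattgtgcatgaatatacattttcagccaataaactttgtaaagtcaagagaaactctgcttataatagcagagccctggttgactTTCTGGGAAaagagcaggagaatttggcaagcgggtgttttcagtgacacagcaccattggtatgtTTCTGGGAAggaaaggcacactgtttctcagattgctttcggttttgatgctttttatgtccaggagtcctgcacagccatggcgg
The NAIP promoters lie on the minus strand at chr13:100202073-100202372 for Naip2, chr13:100247287-100247586 for Naip5 and chr13:100316567-100316866 for Naip6. Capitals mark the longest run that Naip2 and Naip5 share, which has 34 bases and is not found in the Naip6 window.
Naip2: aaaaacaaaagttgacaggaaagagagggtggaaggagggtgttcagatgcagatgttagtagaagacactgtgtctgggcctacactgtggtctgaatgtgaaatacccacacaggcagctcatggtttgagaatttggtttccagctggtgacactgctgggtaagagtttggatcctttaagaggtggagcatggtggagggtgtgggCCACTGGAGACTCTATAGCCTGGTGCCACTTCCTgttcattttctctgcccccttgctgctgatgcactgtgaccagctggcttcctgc
Naip5: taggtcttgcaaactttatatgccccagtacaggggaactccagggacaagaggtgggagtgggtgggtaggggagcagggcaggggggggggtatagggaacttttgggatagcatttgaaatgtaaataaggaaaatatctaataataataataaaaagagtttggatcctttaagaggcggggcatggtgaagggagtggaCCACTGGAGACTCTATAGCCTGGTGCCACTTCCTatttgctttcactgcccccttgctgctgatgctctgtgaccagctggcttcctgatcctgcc
Naip6: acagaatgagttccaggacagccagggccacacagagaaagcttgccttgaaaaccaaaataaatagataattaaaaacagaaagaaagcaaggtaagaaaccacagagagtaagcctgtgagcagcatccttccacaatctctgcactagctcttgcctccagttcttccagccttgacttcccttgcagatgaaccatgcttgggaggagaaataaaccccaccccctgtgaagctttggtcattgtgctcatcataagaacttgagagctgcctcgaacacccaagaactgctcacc

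The windows of Naip2 and Naip5 were 62.1% identical when aligned, whereas Naip6 was 47.6% identical to Naip2 and 44.1% to Naip5. Casp12 held TTCNNNGAA, the site bound by STAT factors, from position -102 and again from -36 relative to its start. That motif stood in 8.30% of 32851 promoters of the same length, and among the 7 members searched only Casp12 held it. Casp4 held 2 places that match the NF-kB site, one with overlapping matches from -93 and -92 and one from -39. Naip5 held the same site from -218, and 8.46% of promoters held it on either strand. The interferon-stimulated response element core, found in 3.44% of promoters, and the AP-1 site TGANTCA, found in 7.81%, matched in none of the 7 members. Both strands were searched for each motif, and a match is a run of letters, not a site known to be bound.

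Libraries held 27898705 to 51878289 counts on genes. Vipr2 itself had 1, 2 and 1 counts in KO_1E7, against 1, 13 and 12 in CRISPR_1G2 and 6, 3 and 12 in the parental line. It passed the threshold in no comparison (edgeR's quasi-likelihood test with Benjamini-Hochberg adjustment, adjusted p = 0.155 for KO_1E7 against parental), so at this depth the targeted gene did not check the labels. The keratin genes Krt8, Krt18 and Krt19 of duct and epithelium were present in all libraries, with a summed level of the 10 listed markers of these tissues from 906 to 2130 CPM, a count scaled to library size. Of those 10, Krt7 and Cldn7 were lower in KO_1E7 than in the parental line (log2 fold changes -2.50 ± 0.51, adjusted p = 0.0323, and -1.89 ± 0.29, adjusted p = 0.0156, edgeR), and these and Epcam were lower in KO_1E7 than in CRISPR_1G2. Of 9 fibroblast markers 5 were tested, and in KO_1E7 against CRISPR_1G2 Pdgfrb and Col1a2 were higher and Col1a1 lower by edgeR. Col1a2 had 229, 46 and 55 counts in KO_1E7 and 9, 4 and 8 in CRISPR_1G2, so most of its KO_1E7 counts came from KO_1E7 1. The part of these shifts in the results below was not tested. Parental 3, CRISPR_1G2 3 and KO_1E7 2 stood apart from their own groups at some of the genes below, and results that rest on them are given with and without them. The column names of first and second libraries end in what look like dates, which differ within each group. One is shared by KO_1E7 1 and parental 1 and another by CRISPR_1G2 1 and parental 2, and the third library of every group carries the word NSG, which the labels do not explain.

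**Figure D1:**
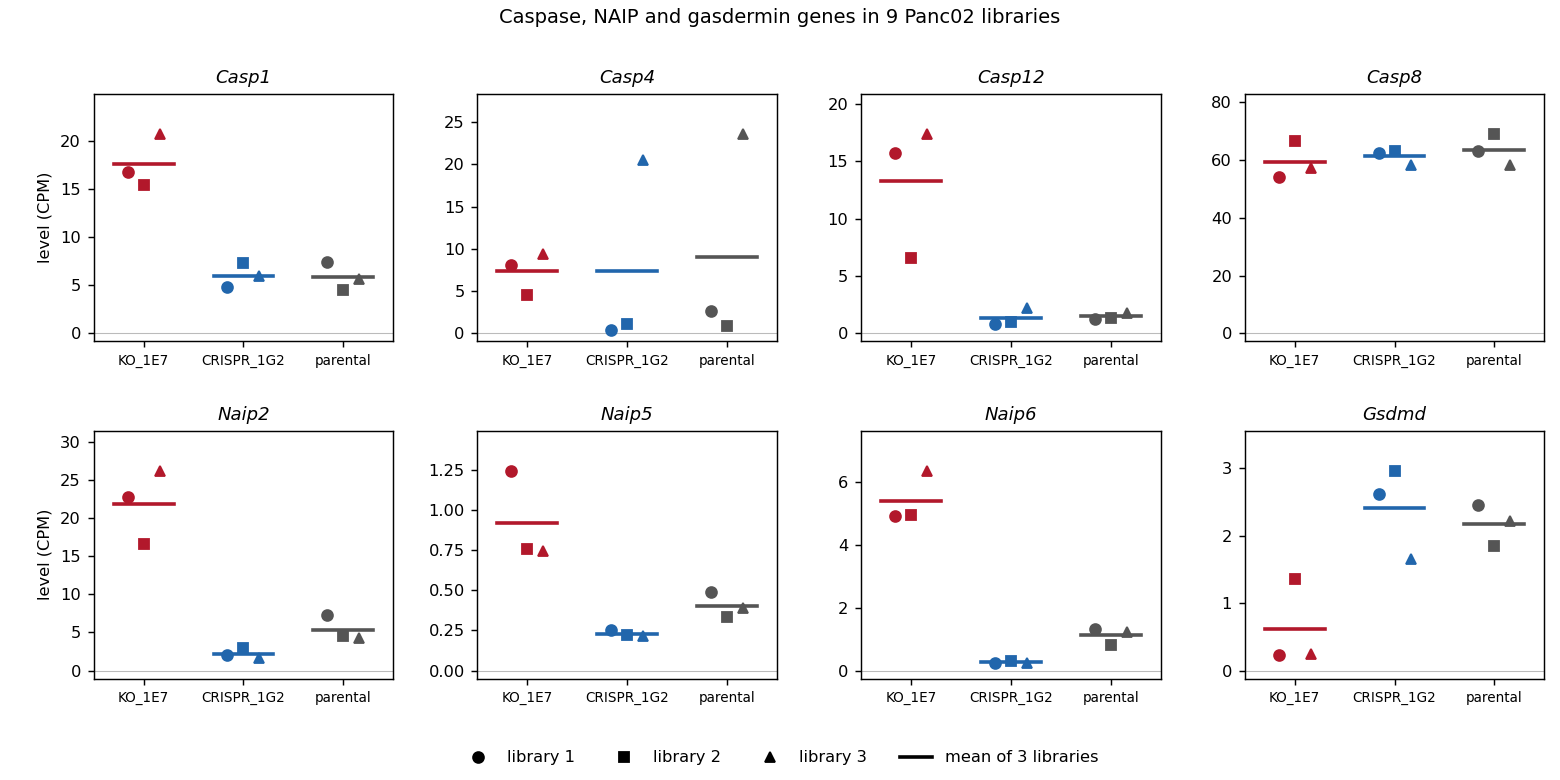
Level of each of the 8 genes in CPM (vertical axis, from 0 on each panel) in the 3 libraries of KO_1E7, CRISPR_1G2 and the parental line, with a horizontal line at the mean of 3 libraries. Naip2, Naip6, Casp1 and Casp12 are high in all KO_1E7 libraries, while Casp4 is highest in CRISPR_1G2 3 and parental 3.

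Among the members, Casp1, Casp12, Naip2 and Naip6 were higher in KO_1E7 than in the parental line past the threshold used over all genes, an adjusted p of 0.05, and Gsdmd was lower in every KO_1E7 library without passing it. That made 4 of 8 members, where 5.42% of all genes passed in either direction, 2.54% higher and 2.87% lower. Against CRISPR_1G2, 5 members passed, all higher, where 12.7% of all genes passed, 5.71% higher and 7.03% lower. In CRISPR_1G2 against parental 1 member passed, Naip6, which was lower, where 0.254% of all genes passed, all of them lower. Libraries did not overlap for 34.4% of all genes in KO_1E7 against parental, for 13.1% in CRISPR_1G2 against parental and for 38.6% in KO_1E7 against CRISPR_1G2. The members were chosen from these groups, so nothing is read from their share. Their median log2 fold change was 1.38 in KO_1E7 against parental, -0.21 in CRISPR_1G2 against parental and 1.76 in KO_1E7 against CRISPR_1G2, beside -0.03, 0.02 and -0.03 over all genes tested. In a fit with a term for the ending of the column names, added after seeing the data, 5 members passed against parental and 5 against CRISPR_1G2, in both cases Casp1, Casp12, Naip2 and Naip6, all higher, and Gsdmd, which was lower, and no member passed in CRISPR_1G2 against parental. That fit has 2 residual degrees of freedom, and KO_1E7 2 and CRISPR_1G2 2, alone with their dates, do not inform its group differences. It is not among the 18 settings counted below. The comparisons share libraries: both with KO_1E7 use the same KO_1E7 libraries, and both with the parental line use the same parental ones.

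**Figure D2:**
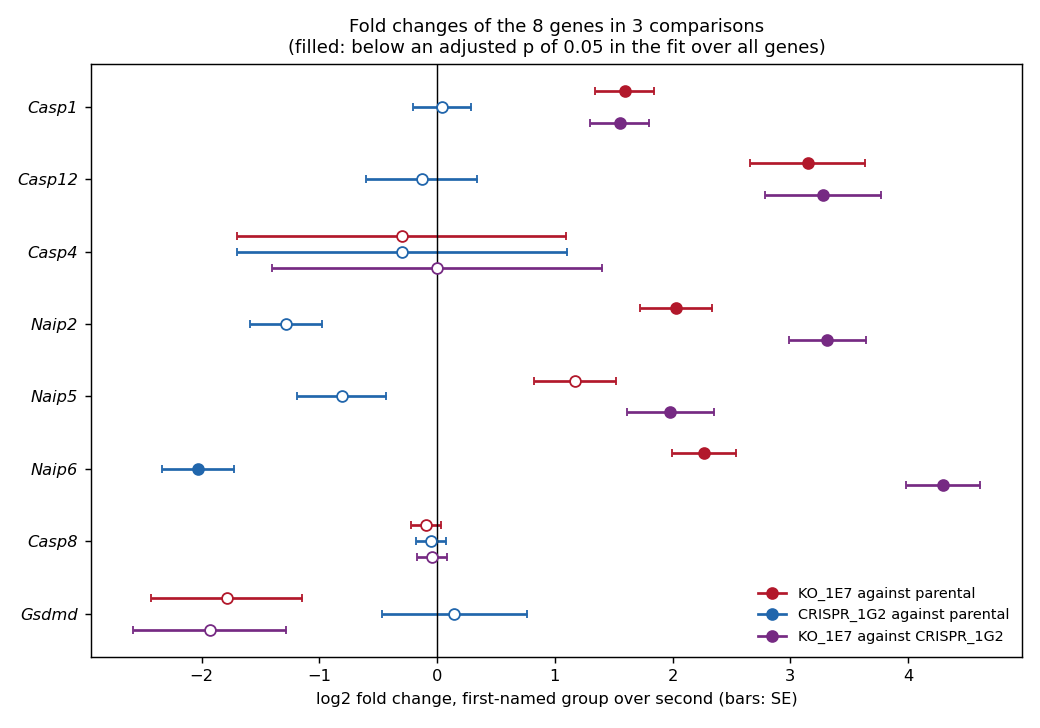
Log2 fold change of each gene (horizontal axis, first-named group over second) with its standard error as a bar, in 3 comparisons. Filled points are below an adjusted p of 0.05 in the fit over all genes. The 3 NAIP genes lie right of 0 in KO_1E7 and left of 0 in CRISPR_1G2 when each is set against the parental line.

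The NAIP sensors were highest in KO_1E7 and lowest in CRISPR_1G2. Naip2, whose product in the mouse recognises rod proteins of bacterial secretion systems, stood at 22.8, 16.6 and 26.2 CPM in KO_1E7, at 2.00, 2.90 and 1.68 CPM in CRISPR_1G2 and at 7.24, 4.50 and 4.28 CPM in the parental line. All KO_1E7 libraries lay above all others and all CRISPR_1G2 libraries below all parental ones. The log2 fold change was 2.03 ± 0.31 (SE) for KO_1E7 against parental, past the threshold, and -1.28 ± 0.31 for CRISPR_1G2 against parental, which did not pass. The first of these no longer passed without KO_1E7 1 or without KO_1E7 3, at 1.75 to 2.32 over 18 alternative settings. Naip2 (ENSMUSG00000078945) spans chromosome 13, 100144063 to 100202092, in the GRCm38 build.

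Naip6 (ENSMUSG00000078942, chromosome 13, 100281121 to 100317674), a flagellin sensor in the mouse, showed the same order at a lower level. Its level was 4.92, 4.95 and 6.36 CPM in KO_1E7, 0.254, 0.315 and 0.244 CPM in CRISPR_1G2 and 1.31, 0.828 and 1.223 CPM in the parental line. The 3 groups did not overlap. In CRISPR_1G2 this rested on 7, 10 and 8 counts, against 48, 30 and 44 in the parental line. On the log2 scale the difference was 2.27 ± 0.28 in KO_1E7 and -2.03 ± 0.30 in CRISPR_1G2, each against parental, and 4.30 ± 0.31 between the clones, all past the threshold. The first of these did not pass without KO_1E7 3 and ran from 2.10 to 2.40 over 18 alternative settings. The lower level in CRISPR_1G2 passed in 6 of those settings, and of the 9 settings that left out 1 library it passed only without parental 2, at values from -2.20 to -1.89 over all settings. It did not pass when parental 3 and CRISPR_1G2 3 were left out, and it passed when KO_1E7 2 was left out with them.

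Naip5 (ENSMUSG00000071203, chromosome 13, 100211739 to 100246323), which also senses flagellin in the mouse, was close to the detection limit. It had 44, 40 and 25 counts in KO_1E7, against 7, 7 and 7 in CRISPR_1G2 and 18, 12 and 14 in the parental line. As levels these were 1.24, 0.758 and 0.746 CPM in KO_1E7, 0.254, 0.221 and 0.214 CPM in CRISPR_1G2 and 0.492, 0.331 and 0.389 CPM in the parental line, and again the groups did not overlap. The log2 fold change of 1.98 ± 0.37 between KO_1E7 and CRISPR_1G2 passed the threshold, while 1.17 ± 0.35 for KO_1E7 and -0.81 ± 0.38 for CRISPR_1G2 against parental did not. Without KO_1E7 1 or without CRISPR_1G2 2 the first of these no longer passed, and it ran from 1.70 to 2.12 over the 18 settings.

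Across all tested genes, 1.55% lay, without overlap, above parental in KO_1E7 and below it in CRISPR_1G2, as the 3 NAIP genes did. The NAIP genes are close copies, so reads can be lost or split between them. Of all runs of 50 bases in their annotated transcripts, 19.1% for Naip2, 36.9% for Naip5 and 21.5% for Naip6 also occurred in another gene, and for runs of 100 bases the shares were 4.44%, 16.2% and 6.26%. For Casp1 and Casp12 both shares were 0%. The single values of Naip5 in particular are therefore uncertain. Naip1, the remaining NAIP gene of the sum below, had 0, 0 and 3 counts in KO_1E7, 6, 7 and 5 in CRISPR_1G2 and 1, 0 and 9 in the parental line and was too low to test. Naip3, the gene that shared the most runs of 100 bases with Naip5 (8.72% of those of Naip5), is not part of that sum. Adding up counts also cannot restore reads that were lost.

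With the counts of Naip1, Naip2, Naip5 and Naip6 added up, the NAIP level averaged 28.2 ± 5.61 CPM in KO_1E7, 2.89 ± 0.70 CPM in CRISPR_1G2 and 6.96 ± 1.85 CPM in the parental line (SD, n = 3 each). Naip2 made up 77.5% of the sum in KO_1E7, 75.9% in CRISPR_1G2 and 76.8% in the parental line. Naip6 made up 19.2%, 9.38% and 16.1% in the same order of groups. For the sum the log2 fold change was 2.02 ± 0.27 for KO_1E7 against parental, which passed the threshold, and -1.27 ± 0.27 for CRISPR_1G2 against parental, which did not. Without KO_1E7 1 the first of these was 2.00 and no longer passed, and without KO_1E7 3 it was 1.90 and likewise did not pass.

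Within 500 kb of the block 16 genes other than the NAIPs were tested, none passed in KO_1E7 or CRISPR_1G2 against parental by edgeR's quasi-likelihood test, and their log2 fold changes in KO_1E7 against parental ran from -0.52 to 0.87. The tight junction gene Ocln was 1.55 ± 0.40 lower on the log2 scale in KO_1E7 than in CRISPR_1G2 (adjusted p = 0.0371, edgeR). It averaged 4.02 CPM in KO_1E7, 11.8 CPM in CRISPR_1G2 and 4.29 CPM in the parental line, an order unlike that of the NAIPs. Serf1, a neighbour named after its values were seen, had the order of the NAIPs in its group means, at 5.33 CPM in KO_1E7, 2.36 CPM in CRISPR_1G2 and 2.92 CPM in the parental line. Its log2 fold changes were 0.87 ± 0.44 for KO_1E7 against parental (adjusted p = 0.268) and 1.18 ± 0.44 for KO_1E7 against CRISPR_1G2 (adjusted p = 0.117, edgeR). The median log2 fold change in KO_1E7 against parental over the 574 tested genes of chromosome 13 was 0.16 above that of all genes, and over the 914 genes of chromosome 9, which carries the caspase block, also 0.16 above it.

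Of the inflammatory caspases, Casp1 was the most abundant in KO_1E7 per length of transcript, at 11.8 CPM per kilobase. Casp1 (ENSMUSG00000025888, chromosome 9, 5298517 to 5307265) encodes the protease at the centre of inflammasomes. It stood at 16.8, 15.4 and 20.8 CPM in KO_1E7, at 4.83, 7.31 and 5.95 CPM in CRISPR_1G2 and at 7.40, 4.53 and 5.64 CPM in the parental line. KO_1E7 lay above both other groups, as it did for 12.4% of all genes, and those groups overlapped. Its log2 fold change was 1.59 ± 0.25 against parental and 1.55 ± 0.25 against CRISPR_1G2, both past the threshold, and 0.04 ± 0.25 for CRISPR_1G2 against parental. Over 18 alternative settings the first of these ran from 1.44 to 1.80 and stayed past the threshold except without KO_1E7 1 or without KO_1E7 3.

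Casp12 (ENSMUSG00000025887, chromosome 9, 5345430 to 5373032), which encodes a caspase linked to the endoplasmic reticulum in the mouse, showed the largest fold change of the members in KO_1E7 against parental. Its level was 15.7, 6.59 and 17.4 CPM in KO_1E7, 0.799, 1.04 and 2.23 CPM in CRISPR_1G2 and 1.28, 1.38 and 1.81 CPM in the parental line. The groups with low levels overlapped each other, and the lowest KO_1E7 library was above both. KO_1E7 2 was at 0.398 of the mean of KO_1E7 1 and 3. The log2 fold change was 3.15 ± 0.49 against parental and 3.28 ± 0.49 against CRISPR_1G2, both past the threshold. The first no longer passed without KO_1E7 1, without KO_1E7 3 or without parental 1, and ran from 2.92 to 3.64 over the 18 settings.

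Casp4 (ENSMUSG00000033538, chromosome 9, 5308828 to 5336783), the gene of caspase-11, lies between these neighbours and did not follow them. It stood at 8.05, 4.57 and 9.43 CPM in KO_1E7, at 0.436, 1.103 and 20.5 CPM in CRISPR_1G2 and at 2.65, 0.856 and 23.6 CPM in the parental line. The highest values were those of CRISPR_1G2 3 and parental 3, and below them came the 3 KO_1E7 libraries, above the remaining 4. The group means of 7.35 ± 2.51 CPM in KO_1E7, 7.34 ± 11.4 CPM in CRISPR_1G2 and 9.04 ± 12.7 CPM in the parental line (SD, n = 3 each) hide this order, and the log2 fold changes of -0.30 ± 1.40 against parental and -0.00 ± 1.40 against CRISPR_1G2 did not pass. With parental 3 and CRISPR_1G2 3 left out, the log2 fold change was 2.06 for KO_1E7 against parental and 3.24 for KO_1E7 against CRISPR_1G2, both past the threshold. The libraries left out are those where Casp4 was highest. With KO_1E7 2 left out as well, the values were 2.32 and 3.48, again past the threshold. From the first and second libraries of all groups they were 1.85, which did not pass, and 3.03, which did. With a term for the third libraries, neither value passed, at 1.16 against parental and 1.78 against CRISPR_1G2. Neither did 2.07 against parental without parental 3 alone or 3.25 against CRISPR_1G2 without CRISPR_1G2 3 alone, and with the term for the ending of the column names the values were -0.00 and 0.05.

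The third library of each group can be set against its first and second, a contrast that did not serve to choose the genes. In a fit with a term for the third libraries, Casp4 was 3.31 ± 0.72 higher on the log2 scale in the third libraries than in the others, which did not pass after adjustment (adjusted p = 0.0772, edgeR's quasi-likelihood test with Benjamini-Hochberg adjustment). No gene passed in that contrast, 33.3% of all genes had an unadjusted p under 0.05, and DESeq2 called 3048 genes (19.3%), Casp4 being 1 of them. In the third library over the mean of the first and second, Casp4 was 1.49-fold higher in KO_1E7, 26.6-fold in CRISPR_1G2 and 13.5-fold in the parental line. The difference between these groups was not tested. Among the other members, Casp12 had a term of 0.78 ± 0.29 (adjusted p = 0.112, edgeR) and the remaining 6 had adjusted p values of 0.377 or more.

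Genes that moved with Casp4 in these libraries included Fas, the death receptor gene upstream of caspase-8. Fas was at 0.424, 0.265 and 0.686 CPM in KO_1E7, at 0.363, 0.347 and 17.2 CPM in CRISPR_1G2 and at 0.437, 0.193 and 6.95 CPM in the parental line. In the third library it was 1.99-fold above the mean of the others in KO_1E7, 48.5-fold in CRISPR_1G2 and 22.0-fold in the parental line. Irf1, an interferon-induced factor that drives transcription of many immune genes, was 1.18-fold higher in the third library of KO_1E7, 2.73-fold in that of CRISPR_1G2 and 2.21-fold in that of the parental line. Of the 8 interferon factors listed for caspase-11 and gasdermin D, all 8 had a positive third-library term, with a median of 0.78, beside 0.00 over all genes. None of them passed by edgeR and 5 had an unadjusted p under 0.05. The summed level of that list was 149, 130 and 140 CPM in KO_1E7, 93.6, 146 and 207 CPM in CRISPR_1G2 and 154, 122 and 351 CPM in the parental line, and its part in the level of Casp4 was not tested.

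**Figure D3:**
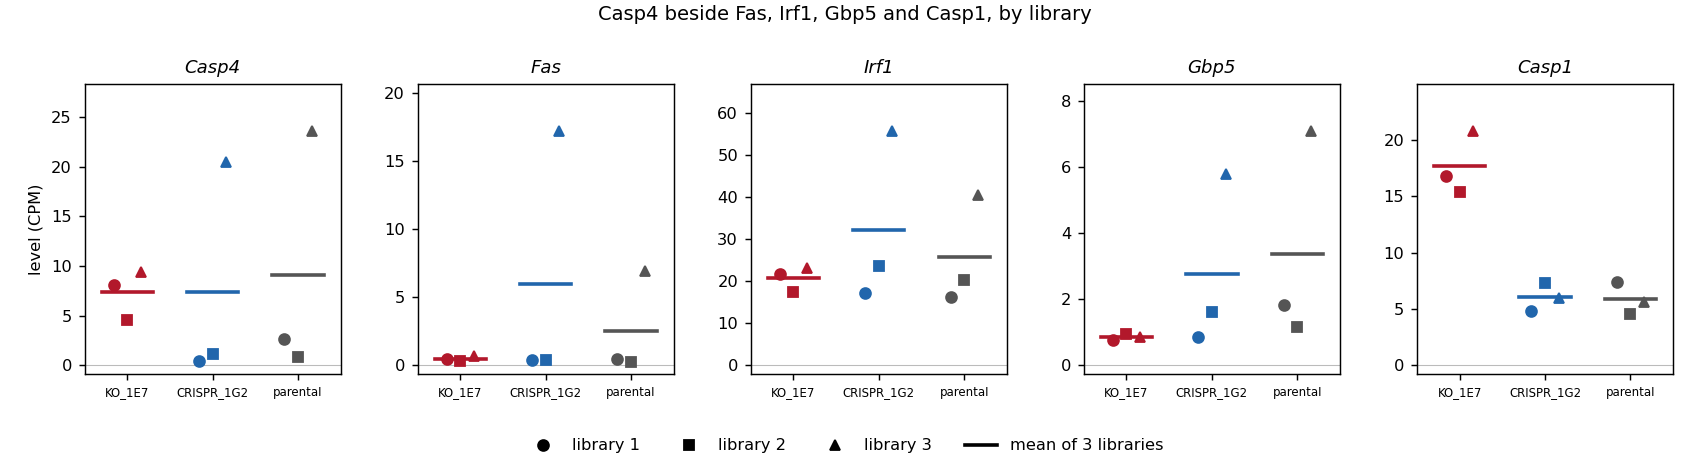
Level in CPM (vertical axis, from 0 on each panel) of Casp4, Fas, Irf1, Gbp5 and Casp1 in each library, with the mean of 3 libraries as a line. The third libraries (triangles) of CRISPR_1G2 and the parental line stand above their groups for the first 4 genes, while Casp1 in them lies within its group.

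Gbp5, which encodes a guanylate-binding protein that helps expose bacterial lipopolysaccharide to caspase-11, had a ratio of the third library to the mean of the others of 0.988 in KO_1E7, 4.75 in CRISPR_1G2 and 4.74 in the parental line. Around the caspase block on chromosome 9 only 1 other gene within 500 kb was tested, the predicted gene Gm7390, and it passed in no group comparison.

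Gsdmd (ENSMUSG00000022575, chromosome 15, 75862339 to 75867404), the target of caspase-1 and caspase-11, was lowest where Casp1 and Casp12 were highest. It had 8, 72 and 8 counts in KO_1E7, against 72, 94 and 54 in CRISPR_1G2 and 90, 67 and 80 in the parental line. As levels these were 0.226, 1.36 and 0.239 CPM in KO_1E7, 2.61, 2.96 and 1.65 CPM in CRISPR_1G2 and 2.46, 1.85 and 2.22 CPM in the parental line. All KO_1E7 libraries lay below all others, as they did for 12.3% of all genes, and KO_1E7 2 was 5.87-fold above the mean of KO_1E7 1 and 3. The log2 fold changes of -1.79 ± 0.64 against parental and -1.93 ± 0.65 against CRISPR_1G2 did not pass. Without KO_1E7 2 both passed, at -3.20 and -3.35. With all libraries DESeq2 called both, as it did 15% of all genes in the first comparison and 21.4% in the second. Over the 18 alternative settings Gsdmd passed in 3 against parental and in 5 against CRISPR_1G2. Those 5 include fits of all libraries with a term for the third libraries or for the replicate number.

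Casp8 (ENSMUSG00000026029, chromosome 1, 58795374 to 58847503) was the most abundant member per length of transcript and the one that varied least. Its level was 53.8, 66.6 and 57.2 CPM in KO_1E7, 62.2, 62.9 and 58.3 CPM in CRISPR_1G2 and 62.9, 69.0 and 58.1 CPM in the parental line. The groups overlapped, and the log2 fold changes of -0.10 ± 0.13, -0.05 ± 0.13 and -0.05 ± 0.13 for KO_1E7 against parental, CRISPR_1G2 against parental and KO_1E7 against CRISPR_1G2 did not pass. A change of Casp8 well above these errors could still have been missed. In the same fit Casp2, at 0.43 ± 0.14 in KO_1E7 against parental, did not pass (adjusted p = 0.11, edgeR). Another gene on the same strand, Gm37760, overlaps Casp8 and had 411 counts over all libraries, against 19846 for Casp8.

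Set in order per kilobase of annotated exon in KO_1E7, Casp8 stood at 20.5 CPM per kilobase, Casp1 at 11.8, Naip2 at 4.51, Casp12 at 3.45, Casp4 at 1.98, Naip6 at 0.792, Gsdmd at 0.343 and Naip5 at 0.176 CPM per kilobase. In the parental line Casp8 stood at 21.9 CPM per kilobase, Casp1 at 3.91, Casp4 at 2.44, Gsdmd at 1.23, Naip2 at 1.102, Casp12 at 0.388, Naip6 at 0.164 and Naip5 at 0.0776. Neighbours in the order for KO_1E7 overlapped across libraries for Naip2 and Casp12, Casp12 and Casp4, Naip6 and Gsdmd, and Gsdmd and Naip5, and neighbours in the parental order overlapped for Casp1 and Casp4, Casp4 and Gsdmd, and Gsdmd and Naip2. The length used is that of all annotated exons, which may exceed the transcript that these cells make.

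Each member was also compared with all tested genes over the 9 libraries by Pearson's r of log2 CPM, given with no p, since the libraries share groups and the points are not independent. For Naip2 the nearest genes were Syt8 (r = 0.991), Psap (0.988) and Selenop (0.986), and for Naip6 Rps6-ps4 (0.996), Zfp493 (0.988) and Procr (0.987). Nearest to Naip5 were Nagk (0.986), Ift172 (0.985) and A830082K12Rik (0.983). For Casp12 they were the cytokine receptor gene Osmr (0.995), Irak3 (0.989) and Magi1 (0.987), and for Casp1 Pon3 (0.977), Socs3 (0.972) and 9330182L06Rik (0.970). Casp4 was nearest to Egf (0.993), Zfp65 (0.981) and Nr1h4 (0.980), Gsdmd to Myadm (0.991), Dpysl3 (0.987) and Abcc1 (0.986), and Casp8 to Fgfr2 (0.936), Zfand6 (0.917) and Anxa1 (0.905). Between members, r was 0.983 for Naip2 with Naip6, 0.924 for Casp1 with Casp12, 0.372 for Casp1 with Casp4 and -0.946 for Casp12 with Gsdmd.

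Osmr, which encodes the receptor subunit for oncostatin M, is shown because it was the most alike to Casp12 of all tested genes. It stood at 13.1, 3.96 and 13.3 CPM in KO_1E7, at 0.363, 0.441 and 1.37 CPM in CRISPR_1G2 and at 0.738, 0.497 and 0.890 CPM in the parental line. KO_1E7 2 was again the lowest of its group, while parental 1 and 2 stood in the opposite order to that of Casp12.

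Other genes of these pathways were read from 8 lists. Of 66 symbols for other caspases, gasdermins, inflammasome parts, caspase-8 partners, apoptosome genes, caspase inhibitors and interferon factors, 64 were in the table and 45 were tested. In KO_1E7 against parental 2 were higher and 1 lower by edgeR's quasi-likelihood test, beside the 5.42% of all genes given above, and the median log2 fold change of the 45 was 0.03. In KO_1E7 against CRISPR_1G2 5 were higher and 2 lower, where 5.71% of all genes passed higher and 7.03% lower. In CRISPR_1G2 against parental none passed by edgeR, 7 had an unadjusted p under 0.05 where 7.73% of all genes did, and DESeq2 called 2, Fadd and Tnfrsf10b, where it called 1.49% of all genes.

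Of the inflammasome sensors and adaptors, 4 of 11 were tested and none passed in KO_1E7 against parental. Nlrc4, which the NAIPs need, was too low to test, with 5, 6 and 10 counts in KO_1E7, 0, 3 and 12 in CRISPR_1G2 and 8, 0 and 2 in the parental line. Pycard, the gene of the adaptor ASC, ran from 0.678 to 0.985 CPM in KO_1E7, from 0.799 to 1.64 CPM in CRISPR_1G2 and from 1.07 to 1.56 CPM in the parental line, with a log2 fold change of -0.61 ± 0.36 in KO_1E7 against parental (adjusted p = 0.341, edgeR). Nlrp3, another sensor, stood at 0.226, 0.379 and 0.806 CPM in KO_1E7, at 0.327, 0.473 and 1.59 CPM in CRISPR_1G2 and at 0.902, 0.248 and 0.806 CPM in the parental line, and the groups overlapped. The DNA sensor gene Aim2 was higher in KO_1E7 than in CRISPR_1G2 by 1.46 ± 0.40 on the log2 scale (adjusted p = 0.0462, edgeR), at 1.47, 1.17 and 2.00 CPM in KO_1E7 against 0.472, 0.410 and 0.794 CPM in CRISPR_1G2 and 2.13, 1.44 and 1.08 CPM in the parental line.

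The substrates of caspase-1 were low in all groups. Il1b had 14, 36 and 7 counts in KO_1E7, 22, 17 and 8 in CRISPR_1G2 and 14, 0 and 4 in the parental line, and did not pass (adjusted p = 0.41 for KO_1E7 against parental, edgeR). Il18 was too low to test, with at most 9 counts in a library. Ninj1, whose product ruptures the membrane of dying cells, was abundant, at 40.7, 34.4 and 38.3 CPM in KO_1E7, 35.8, 35.5 and 24.8 CPM in CRISPR_1G2 and 41.8, 43.0 and 28.0 CPM in the parental line, and did not pass (0.01 ± 0.21 on the log2 scale, adjusted p = 0.99 for KO_1E7 against parental, edgeR).

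Of the 9 other gasdermin genes found, 2 were tested, Gsdme and Gsdmc4, and neither passed. Gsdme, which encodes another pore-forming gasdermin, stood at 19.5, 22.0 and 20.4 CPM in KO_1E7, at 26.8, 27.1 and 22.0 CPM in CRISPR_1G2 and at 22.9, 21.9 and 23.4 CPM in the parental line. Its log2 fold change was -0.14 ± 0.13 for KO_1E7 against parental (adjusted p = 0.572, edgeR).

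Of the other caspases, 5 of 6 were tested, and none passed in KO_1E7 against parental. Casp2 was at 39.6, 48.3 and 42.4 CPM in KO_1E7, at 27.0, 29.8 and 32.7 CPM in CRISPR_1G2 and at 34.8, 33.4 and 28.5 CPM in the parental line, and rose in KO_1E7 against CRISPR_1G2 by 0.54 ± 0.14 on the log2 scale (adjusted p = 0.039, edgeR). Casp9, the caspase of the apoptosome, was at 20.8, 29.4 and 25.1 CPM in KO_1E7, at 17.8, 20.0 and 10.7 CPM in CRISPR_1G2 and at 15.5, 19.8 and 11.5 CPM in the parental line. Its log2 fold change was 0.69 ± 0.28 over parental (adjusted p = 0.184, edgeR).

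**Figure D4:**
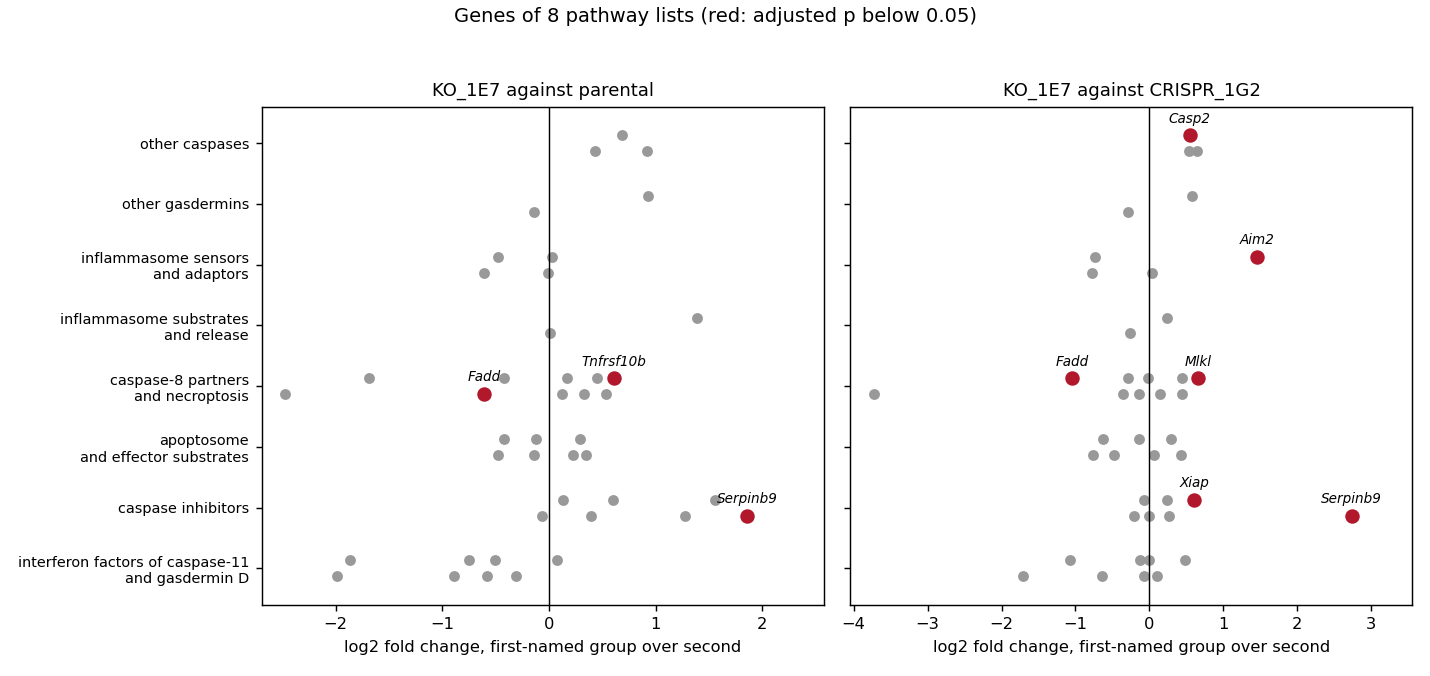
Log2 fold change (horizontal axis, first-named group over second) of 43 of the 45 tested genes of 8 pathway lists in KO_1E7 against parental and in KO_1E7 against CRISPR_1G2. Red points passed an adjusted p of 0.05 and are named: all 3 in the first comparison and 6 of the 7 in the second.

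Around caspase-8, the adaptor gene Fadd fell in KO_1E7. It was at 16.4, 16.6 and 14.3 CPM in KO_1E7, at 32.9, 30.9 and 33.9 CPM in CRISPR_1G2 and at 24.0, 22.2 and 25.6 CPM in the parental line, without overlap between any groups. Its log2 fold change was -0.60 ± 0.13 against parental (adjusted p = 0.0351) and -1.05 ± 0.13 against CRISPR_1G2 (adjusted p = 0.00329, edgeR). The 1240 tested genes of chromosome 7, which carries Fadd, had a median 0.42 below that of all genes in KO_1E7 against parental and 0.50 below it in KO_1E7 against CRISPR_1G2, and its part in the fall of Fadd was not tested. Tnfrsf10b, the gene of the mouse TRAIL receptor, was at 94.6, 82.2 and 102 CPM in KO_1E7, at 99.4, 106 and 104 CPM in CRISPR_1G2 and at 59.4, 65.8 and 57.8 CPM in the parental line. Both clones lay above the parental line, by 0.61 ± 0.12 on the log2 scale in KO_1E7 (adjusted p = 0.0292) and by 0.76 ± 0.12 in CRISPR_1G2, which did not pass (adjusted p = 0.0594, edgeR). The clones overlapped each other. The median of its chromosome 14 in KO_1E7 against parental was 0.31 above that of all genes.

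Among genes of necroptosis, Mlkl, the membrane executioner, rose in KO_1E7 against CRISPR_1G2 by 0.66 ± 0.12 on the log2 scale (adjusted p = 0.013, edgeR). It was at 122, 118 and 142 CPM in KO_1E7, at 82.7, 85.0 and 73.9 CPM in CRISPR_1G2 and at 110, 96.9 and 96.6 CPM in the parental line. Its upstream kinase gene Ripk3 was too low to test in the main fit of all libraries. It had 8, 3 and 4 counts in KO_1E7, 19, 13 and 2 in CRISPR_1G2 and 8, 3 and 1 in the parental line. With parental 3 and CRISPR_1G2 3 left out, Ripk3 was tested and passed in KO_1E7 against CRISPR_1G2. CRISPR_1G2 3, left out there, held the fewest Ripk3 counts of that clone. Fas, given above, passed in no group comparison.

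Of the 7 genes listed under caspase inhibitors, Serpinb9 rose in KO_1E7 against both groups and Xiap against CRISPR_1G2. The list does not say which proteases each gene's product inhibits. Serpinb9, a serpin gene that also lies on chromosome 13, was at 37.7, 12.8 and 26.4 CPM in KO_1E7, at 3.63, 4.38 and 3.51 CPM in CRISPR_1G2 and at 8.25, 6.02 and 6.89 CPM in the parental line. It thus had the order of groups seen for the NAIP genes. The log2 fold change was 1.86 ± 0.36 against parental (adjusted p = 0.0269) and 2.73 ± 0.37 against CRISPR_1G2 (adjusted p = 0.00445, edgeR). Xiap, which encodes an inhibitor of caspases of apoptosis, differed by 0.60 ± 0.16 in KO_1E7 against CRISPR_1G2 (adjusted p = 0.0383, edgeR).

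These calls differed in how firmly they held over 18 alternative settings. Against CRISPR_1G2, Fadd and Serpinb9 passed in all 18, Mlkl in 16, and Casp2, Aim2 and Xiap in 9 each. Mlkl no longer passed without KO_1E7 1 or 3, at 0.54 to 0.71 over all settings. Casp2, at 0.46 to 0.65, and Aim2, at 1.25 to 1.97, no longer passed without any 1 KO_1E7 library, without CRISPR_1G2 1 or 2 or without parental 1 or 2. Xiap, at 0.45 to 0.68, no longer passed without any 1 library of either clone or without parental 1. Against parental, Serpinb9 passed in 12 settings but not without KO_1E7 1, KO_1E7 3 or any 1 parental library, at 1.47 to 2.19. Tnfrsf10b passed in 10 settings, at 0.51 to 0.70, but not without KO_1E7 1 or 3, CRISPR_1G2 1 or 2 or any 1 parental library. Fadd passed in 8, at -0.65 to -0.48. Fadd no longer passed without any 1 library other than CRISPR_1G2 3. With the term for the ending of the column names, Fadd and Serpinb9 passed against CRISPR_1G2 and Serpinb9 and Tnfrsf10b against parental, while Mlkl, Casp2, Aim2, Xiap and, against parental, Fadd did not.

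Since NAIPs, caspase-1 and caspase-11 are strongly expressed in macrophages, markers of leukocytes were measured beside them. Of the listed markers 14 were found in the files, 10 of them were tested, and none passed in any group comparison by edgeR. Their summed level was 81.0, 79.5 and 69.5 CPM in KO_1E7, 109, 91.1 and 65.6 CPM in CRISPR_1G2 and 67.4, 49.4 and 32.3 CPM in the parental line, of which Cd14 and Cd68 together made up the larger share in every library. Cd14 was at 43.4, 44.2 and 36.6 CPM in KO_1E7, at 62.4, 60.8 and 25.4 CPM in CRISPR_1G2 and at 34.7, 44.8 and 20.1 CPM in the parental line. Cd68 was at 2.77, 3.07 and 2.06 CPM in KO_1E7, at 2.58, 4.03 and 8.21 CPM in CRISPR_1G2 and at 4.54, 2.65 and 7.92 CPM in the parental line. Neither was low in both parental 2 and parental 3. Without those genes, set aside after their values were seen, the sum was 34.8, 32.3 and 30.9 CPM in KO_1E7, 43.7, 26.2 and 32.1 CPM in CRISPR_1G2 and 28.2, 1.99 and 4.28 CPM in the parental line. The sum of the other markers was thus high in 7 libraries and low in parental 2 and 3.

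Ptprc, the pan-leukocyte gene of CD45, was at 1.84, 2.56 and 1.88 CPM in KO_1E7, at 3.85, 2.175 and 2.53 CPM in CRISPR_1G2 and at 1.97, 0.0276 and 0.0834 CPM in the parental line. The macrophage and neutrophil genes Lyz2 and S100a8 were likewise low in parental 2 and 3. Ptprc thus ran from 1.84 to 3.85 CPM over all libraries of both clones and parental 1. Naip2 stood at 16.6 to 26.2 CPM in KO_1E7, at 1.68 to 2.90 CPM in CRISPR_1G2 and at 7.24 CPM in parental 1. The part of leukocyte RNA in the levels of the members was not tested. In bulk RNA, fewer cells of a type and less RNA per cell cannot be told apart.

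**Figure D5:**
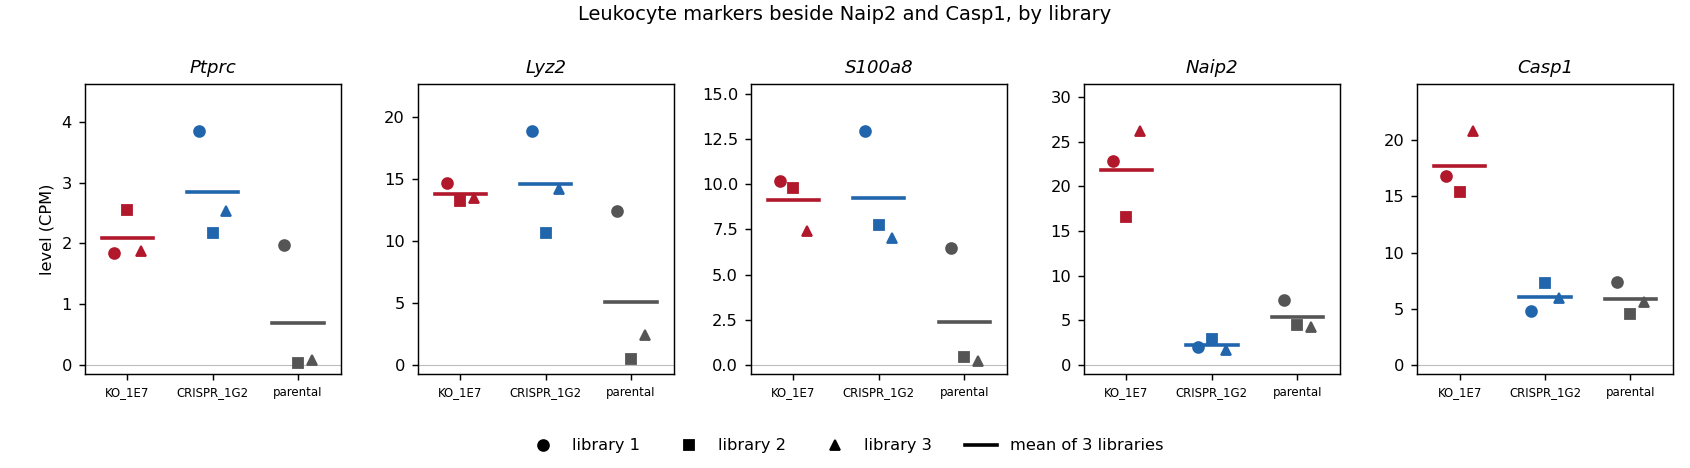
Level in CPM (vertical axis, from 0 on each panel) of the leukocyte markers Ptprc, Lyz2 and S100a8 beside Naip2 and Casp1 in each library, with the mean of 3 libraries as a line. These 3 markers are low in parental 2 and 3 and high in the other 7 libraries, and Naip2 and Casp1 are high in KO_1E7.

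Of 9 acinar and islet markers, 5 were at 0 in all libraries, among them Ptf1a and Ins1. Only the elastase gene Cela1 had enough counts to be tested. It was 2.24 ± 0.35 higher on the log2 scale in KO_1E7 than in the parental line (adjusted p = 0.0165, edgeR).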

How the data were processed

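Libraries of 9 Panc02 RNA samples were made by oligo-dT selection (NEBNext Ultra II kit), per the labels' protocols. The submitters' processing notes name bcl2fastq 2.17 for demultiplexing, STAR 2.5.2b for alignment to GRCm38 and featureCounts (Subread 1.5.2) for counting, besides DESeq2. For the annotation release and the strand setting, the sources used here give nothing. The authors deposited raw counts per gene for 49671 genes. The 92 spike-in controls, 0.344% to 0.820% of counts, entered neither library sizes nor tests. The label of each library gave its group and number. Dates within a group differ in the column names, but nothing says that libraries came from separate cultures, so p-values measure the spread between libraries, which may be technical.

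From the counts, 15766 genes passing edgeR's filterByExpr were tested with edgeR 4.0.16 in R 4.3.3 (TMM scaling, robust quasi-likelihood test, all libraries in 1 fit, Benjamini-Hochberg adjustment, threshold 0.05). CPM values use TMM-scaled library sizes, and r uses log2 CPM with a prior count of 2. DESeq2 1.42.0, other scaling, filters, designs and left-out libraries were the alternatives. The members, the gene lists and the rules for naming genes (genes called in a comparison, a set of names given whatever their values, called neighbours within 500 kb and the 3 most alike genes) were chosen with earlier results of these data known. Values of some genes of the lists are not reported here. Promoters came from RefSeq (GRCm38.p6), and runs of 50 or 100 bases shared between genes from annotated transcripts of the same genome.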

Additional observations from a re-analysis of the deposited data

Results flagged for a closer look

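Naip2, Naip5 and Naip6 are listed because each KO_1E7 library lay above, and each CRISPR_1G2 library below, every parental library. The log2 fold changes between the clones were 3.31 for Naip2, 1.98 for Naip5 and 4.30 for Naip6. The difference was not tested apart from the comparisons that led to the choice of these genes. Of all genes tested 1.55% had this order of groups and 2.03% the opposite one.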

How the results depend on the processing

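Limits are set by depth for Naip5, Naip1, Nlrc4 and Ripk3, which had under 50 counts in every library. The 3 libraries of a group repeat 1 clone or line. For Casp4 the third libraries of CRISPR_1G2 and the parental line set the group values. Of 646 log2 fold changes of members and list genes recomputed under these settings, 517 kept both their sign and their side of the threshold. No scaling moved the median of all genes by over 0.1. Those tried, TMM, RLE and that of DESeq2, all assume that most genes do not change. Scaling by the spike-in controls was not tried, so a shift of all genes together would not show here.

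Genes past the threshold in KO_1E7 against parental (854) were 2060 with a term for the third libraries, 546 with no filter, 1298 with a replicate block, 2358 with DESeq2, 1737 from first and second libraries, 3330 without parental 3 and CRISPR_1G2 3, 4423 with KO_1E7 2 left out too (a setting added after seeing the data), 1855 with a term for the ending of the column names (added after seeing the data), and 24 to 1998 without 1 library. Members (4) numbered 0 to 5 without 1 library. List genes (3) were 8, 1, 10, 11, 12 and 6 with the third-library term, no filter, DESeq2, those left-out libraries and the column-name term, and 0 to 9 without 1 library.

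In CRISPR_1G2 against parental (40) there were 235 genes with DESeq2, 16 from only those groups, 326 with the 3 libraries left out and 15 to 71 without 1 library. Members (1) were 0 with the replicate block, from only those groups, from first and second libraries, without parental 3 and CRISPR_1G2 3 and with the column-name term, 2 with DESeq2 and 0 to 1 without 1 library. List genes (0) were 1 with the third-library term, 2 with DESeq2 and 3 with the 3 libraries left out. The NAIP sum passed with DESeq2 (-1.26). Its value in KO_1E7 against parental was 1.89 to 2.26 without 1 library.

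In KO_1E7 against CRISPR_1G2 (2010) there were 3330 with the third-library term, 3374 with DESeq2, 3111 from first and second libraries, 4615 and 5557 with 2 and 3 libraries left out, and 453 to 2332 without 1 library. List genes (7) were 11 with the third-library term, 4 with no filter, 3 from only those groups, 16 and 12 with 2 and 3 libraries left out and 2 to 7 without 1 library. In the third-library contrast 1 member passed with DESeq2 and 0 to 1 without 1 library. Casp4 in KO_1E7 turned to 2.06 and 2.32 against parental with 2 and 3 libraries left out, and against CRISPR_1G2 to 3.24 and 3.48, with 3.03 from first and second libraries. The cause was not tested beyond these left-out libraries.

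Replicate numbers were not used as pairs in the main fit. Correlations of deviations ran from -0.0497 to 0.647 between libraries of the same number and from -0.614 to 0.54 between other numbers. Pairs of number 2 (0.0563 to 0.469) and of number 3 (0.0727 to 0.647) were all positive, and 6 of 9 libraries correlated best with their own number. The replicate block follows these numbers and not the dates in the column names; r was -0.00342 for KO_1E7 1 with parental 1 and 0.54 for CRISPR_1G2 1 with parental 2, which share a date.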
